A study of Lathyrus oleraceus with 4 samples.

Results

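A set of 35 pea flower bud transcripts was measured at higher levels after a brief heat episode in the cultivar Matar Ageta while their mean level in the cultivar Arka Chaitra stayed about the same. They were chosen from 127533 entries of a transcriptome assembly by their deposited signal, a count scaled per column that has no gene length term. In Matar Ageta, the lower of the 2 heat columns had to be at least 5, and that value plus 1 had to be at least 2 times the higher control column plus 1. In Arka Chaitra, all 4 columns had to be at least 2, and the mean of the heat columns divided by the mean of the control columns had to lie between 0.67 and 1.5. Since these values chose the 35 members, the heat ratios in either cultivar are a description with no test, and comparisons between the cultivars rest on the same columns.

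The RNA came from unopened pre-anthesis flower buds of pea (Pisum sativum, listed as Lathyrus oleraceus), from a cultivar that the submitters call heat-tolerant (Arka Chaitra) and one that they call susceptible (Matar Ageta). Day and night temperatures for control plants of either cultivar were 22 and 16 °C, while heated plants spent 2 h at 35 °C and their buds were taken directly afterwards. There are 4 samples, 1 for each cultivar and treatment, and each appears as 2 numbered columns that no label explains. The columns were therefore treated as repeat measurements of 1 sample, so there is no replicate check and no p-value, and intervals cover counting error only. No label says how many plants were pooled. The genotype tag names the other cultivar than the title in every sample (0 of 4 tags match the title). Cultivars are named here by title, and if the tags were right, the names Arka Chaitra and Matar Ageta would change places throughout.

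Plants answer a sudden rise in temperature within minutes to hours. Heat shock transcription factors switch on genes for chaperones, proteins that keep other proteins folded, and many housekeeping transcripts decline. Developing anthers and pollen are among the tissues most sensitive to heat in legumes, which is why buds before flower opening are a common stage for such studies. Whether the 35 members belong to these classes could not be asked, because the identifiers of the deposited tables are assembly numbers that are not paired with gene names, and 0 of them matched the 65673 genes of the RefSeq pea table (assembly CAAS_Psat_ZW6_1.0). For the same reason the flower tissue label was not checked against marker genes, and no sequence could be tied to a member. In buds, fewer cells of a type and less RNA per cell cannot be told apart.

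Judged by counts alone, the libraries were deep enough to detect most members. Summed estimated counts were 24247138 in the Arka Chaitra control, 22721681 after heat in Arka Chaitra, 30440169 in the Matar Ageta control and 32711072 after heat in Matar Ageta. The members held 190 to 64754 counts (median 592) in the heated Matar Ageta library, and 64 to 12496 (median 228) in the Arka Chaitra control. A disagreement between columns was common in these libraries: among entries with at least 5 CPM (the library-scaled count) in the higher column, 18.8% to 24.4% differed at least 2-fold between the 2 columns of the same library.

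Few transcripts met the description. Of 18573 entries with both heated Matar Ageta columns at 5 or more, 294 (1.58%) met the Matar Ageta part of the rule. Of these, 189 had at least 1 Arka Chaitra column under 2, including 23 with every Arka Chaitra column listed at 0, and these could not be called steady. Among the 105 that were left, the Arka Chaitra ratio of heat to control was above 1.5 in 49 (46.7%) and under 0.67 in 21 (20%). It was within the band in the 35 members (33.3%). Over all 26200 entries that passed the Arka Chaitra floor the shares were 12.1% above, 13.3% below and 74.7% within the band. An entry raised in Matar Ageta was thus found in the steady band less often than entries at large. It was found above the band more often, and also below it more often, in these single libraries and with no test. The opposite rule, with heat and control exchanged in Matar Ageta, found 136 entries that were lower after heat there and steady in Arka Chaitra, from 236 that passed the Arka Chaitra floor (57.6%).

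**Figure D1:**
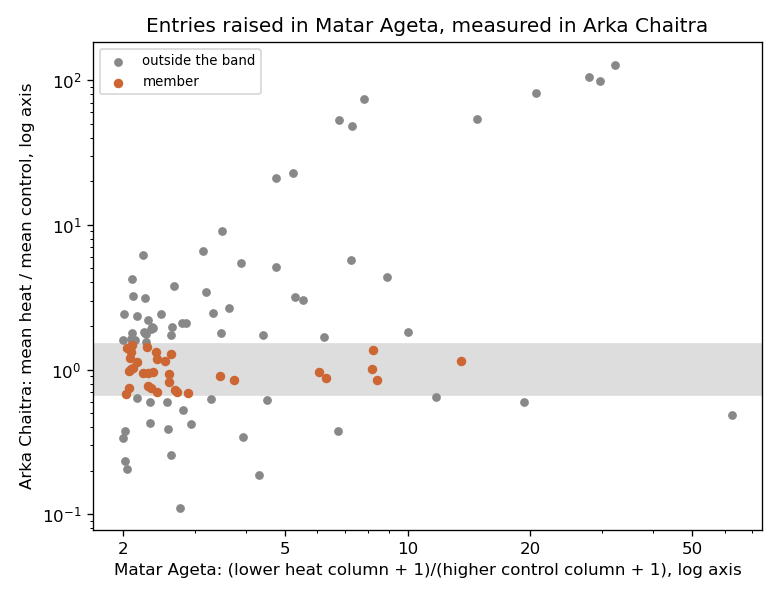
The 105 entries that met the Matar Ageta part of the rule and the Arka Chaitra floor, by Matar Ageta fold (x, offset of 1, log axis) and Arka Chaitra ratio of mean heat to mean control signal (y, log axis). The grey strip is the band from 0.67 to 1.5; it holds the 35 members, while 49 entries lie above it and 21 below.

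Most members stood just over the 2-fold requirement. The Matar Ageta fold used by the rule, lower heat column against higher control column with 1 added to each, ranged from 2.04 to 13.5 with a median of 2.41; it was under 2.5 in 20 members, under 3 in 27 and 5 or more in 6. The smallest values inside were 2.04, 2.04 and 2.07, and the nearest entries outside had 1.99, 1.98 and 1.97. At the Arka Chaitra band the members nearest the upper end had ratios of 1.47, 1.47 and 1.44 against 1.54 for the nearest entry outside, and at the lower end 0.683 against 0.643. The lower heat column of the lowest member was 5.31, and the nearest entry outside had 4.53. The lowest Arka Chaitra column among the members was 2.04, against 1.67 just outside.

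The levels spread widely. The mean signal in heated Matar Ageta buds was under 20 in 21 members, between 20 and 100 in 9 and at least 100 in 5. Its median was 17.2, against 3.45 in the Matar Ageta control. In Arka Chaitra the median was 10.1 in the control and 12.7 after heat. The signal was scaled separately for each cultivar, so these medians are set side by side only as a description.

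**Figure D2:**
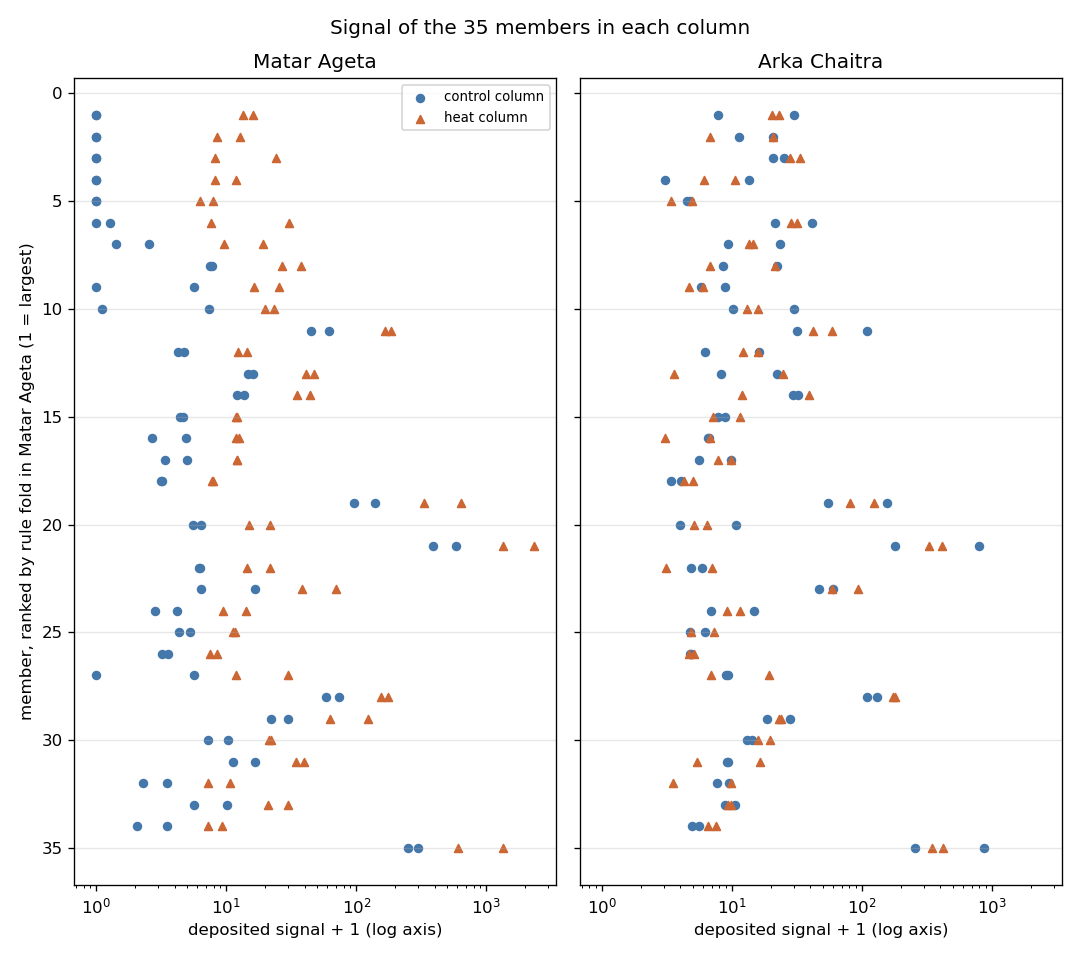
Deposited signal plus 1 (x, log axis) of each of the 35 members (y, ranked by the rule's Matar Ageta fold, 1 being the largest) in the control columns (circles) and heat columns (triangles) of either cultivar. In Matar Ageta the 2 heat columns lie to the right of both control columns in every row, as the rule required. In Arka Chaitra that holds in few rows, and the 2 columns of at least 1 Arka Chaitra library have signals at least 2-fold apart in 20.

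From counts, every member reached the same call. With counts summed per library, scaled together by TMM and compared as log2 of CPM with 0.5 CPM added, heat exceeded control by at least 2-fold in Matar Ageta in 35 of 35 members, with a 95% counting interval above 1. The share over all entries tested was 14.1%, and since the rule used this contrast, nothing is read from the count. Likewise both heat columns were above both control columns in 35 of 35 members, against 17.1% of all entries. The median log2 ratio of the members in Matar Ageta was 1.77 (lowest 1.32, highest 4.75), and over all entries tested -0.04. In Arka Chaitra the median log2 ratio was -0.01 (lowest -0.46, highest 0.57), with 0 members called higher, where 21.2% of all entries were, and 0 called lower, where 14.2% were. The counting interval of the Arka Chaitra ratio nevertheless excluded a ratio of 1 for 18 members, with 8 of them higher and 10 lower after heat. That interval does not cover the disagreement between columns of a library, so no change in level is read from it. The share over all entries was not taken. In CPM of single columns, scaled jointly, both Arka Chaitra heat columns were above both control columns in 6 members (17.1%, against 25.2% of all entries). They were below them in 0 (against 21.5%).

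A first group held members that were unseen in the unheated Matar Ageta buds. In 5 members the Matar Ageta control held 0 counts in both columns. The one with the largest fold, TRINITY_GG_1358_c0_g1, had signals of 0 and 0 in the Matar Ageta control columns and 12.5 and 15.0 after heat. In Arka Chaitra its signal was 6.78 and 29.2 in the control columns and 21.9 and 19.4 after heat. The heated Matar Ageta columns were alike and far from the controls, whereas the Arka Chaitra heat columns fell between the 2 control columns, which were more than 4-fold apart (largest over smallest column 4.31).

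In counts, TRINITY_GG_1358_c0_g1 went from 0 to 435 in Matar Ageta (0 to 13.0 CPM), at least 133-fold higher when 3 counts per library (0.0975 CPM) stand for the 0. In Arka Chaitra it held 450 counts (19.4 CPM) in the control and 486 (21.2 CPM) after heat, a log2 ratio of 0.12. Its heated Matar Ageta level therefore lay below both Arka Chaitra levels. Similar entries divide reads among them in such estimates, and a listed 0 is no proof of a silent gene.

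The member with the second largest fold had signals of 0 and 0 in the Matar Ageta control and 11.7 and 7.40 after heat. Its Arka Chaitra columns were 10.3 and 19.7 in the control and 19.6 and 5.78 after heat. The Arka Chaitra libraries overlapped fully, with 1 heat column near the higher control column and the other below both.

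The third in order had 0 and 0 in the Matar Ageta control, with 7.23 and 23.3 after heat, and in Arka Chaitra 19.5 and 24.1 in the control with 32.6 and 27.1 after heat. Here both Arka Chaitra heat columns exceeded both control columns, at a mean ratio of 1.37, near the upper end of the band. The sixth was close to the third in Matar Ageta only, with 0 and 0.265 in the control and 6.64 and 29.3 after heat. Its Arka Chaitra columns were 20.4 and 40.0 in the control, and the heat columns, 27.3 and 30.8, fell between them. In both members the heated Matar Ageta columns were over 3-fold apart (3.23 and 4.41 times), column 2 being the higher. A signal after heat was present in both columns, and its size differed between them. The fourth and the fifth, also at 0 in both Matar Ageta control columns, had 7.15 and 10.9, and 5.31 and 6.83, after heat.

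A second group was abundant. The member with the highest level in heated Matar Ageta buds, TRINITY_GG_13404_c1_g1, had signals of 388 and 582 in the Matar Ageta control columns and 2344 and 1342 after heat. Its Arka Chaitra signals were 789 and 177 in the control columns and 414 and 327 after heat. The lower heated Matar Ageta column was more than 2 times either control column, while in Arka Chaitra both heat columns fell between the 2 control columns.

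In counts, TRINITY_GG_13404_c1_g1 had 14636 (476 CPM) in the Matar Ageta control and 64754 (1933 CPM) after heat. This is a ratio of 4.06 (counting interval 3.99 to 4.14). In Arka Chaitra it had 10710 counts (462 CPM) in the control and 8735 (380 CPM) after heat, a ratio of 0.823 whose counting interval ended at 0.847. The control libraries of the cultivars differed little (log2 ratio of Arka Chaitra to Matar Ageta -0.04), whereas after heat Matar Ageta was the higher (log2 ratio -2.34).

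The next 3 members by heated Matar Ageta level behaved alike in Arka Chaitra. The second highest had 250 and 298 in the Matar Ageta control, 1347 and 607 after heat, and 865, 253, 421 and 342 in the Arka Chaitra control and heat columns. The third highest had 95.4 and 138 in the Matar Ageta control, 635 and 328 after heat, and 155, 54.2, 123 and 80.2 in Arka Chaitra. The fourth highest had 44.1 and 60.8, then 165 and 184, and 107, 30.5, 58.0 and 41.3 in Arka Chaitra.

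In all 4 of these abundant members, column 1 of the Arka Chaitra control was the higher, by 2.87 to 4.46 times, and column 1 of the Arka Chaitra heat library by 1.23 to 1.53 times. Of the 19562 entries steady in Arka Chaitra, 220 (1.12%) had a control column ratio of 2.87 or more. That limit is the lowest ratio of the 4 themselves, so all 4 reach it by construction. Less abundant members also reached it, with a highest ratio of 6.17. The 4 abundant members were grouped after their values were seen. Against column 1 of the Arka Chaitra control alone their heat columns were lower, and against column 2 alone they were higher, so their place in the band rests on the mean of 2 unlike columns.

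The fifth highest member differed from these. It had 72.6 and 57.1 in the Matar Ageta control, 173 and 153 after heat, and 129, 109, 178 and 171 in the Arka Chaitra control and heat columns. Columns within a library agreed closely, and in Arka Chaitra both heat columns were above both control columns at a ratio of 1.47. After heat the cultivars stood at 161 CPM (Matar Ageta) and 178 CPM (Arka Chaitra). This transcript was thus higher after heat in both cultivars, by 2.51 times in Matar Ageta and 1.48 times in Arka Chaitra (counting interval 1.41 to 1.56), and is a member because the second value lies under the limit of 1.5.

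The steadiness of the members in Arka Chaitra was one of means more than of columns. All 4 Arka Chaitra columns lay within 2-fold of each other in 13 of 35 members (37.1%), against 88.9% of the 19562 entries that met the Arka Chaitra part of the rule. They lay within 1.5-fold in 2 members (5.71%), against 59.4%. The largest column was a median of 2.86 times the smallest in the members and 1.43 times in the 19562. The control levels of the 2 sets were similar, with a median mean signal of 10.1 in the members and 11.4 in the 19562. The control columns were at least 2-fold apart in 13 members (37.1% against 5.72%), with column 1 the higher in 11 of them, and the heat columns in 9 (25.7% against 3.64%). In heated Matar Ageta buds, where the rule tied the members to the lower column, 5 of 35 members (14.3%) had columns at least 2-fold apart, against 10.4% of the 19562. Whether this column spread has a part in the pattern was not tested.

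**Figure D3:**
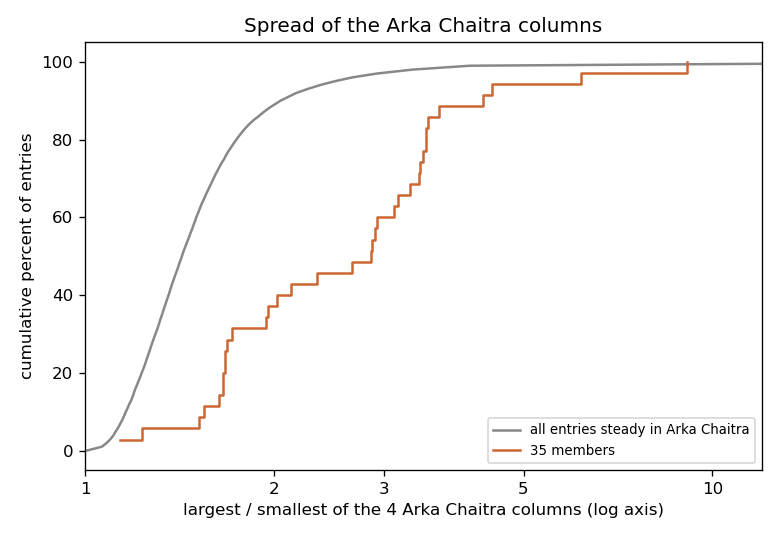
Cumulative percent of entries (y) by the ratio of the largest to the smallest of the 4 Arka Chaitra columns (x, log axis), for the 35 members (orange steps) and for the 19562 entries that met the Arka Chaitra part of the rule (grey line). The members' curve lies to the right: 13 of 35 are within 2-fold, against 88.9% of the 19562.

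The 13 members that held within 2-fold in every Arka Chaitra column had Matar Ageta folds of 2.04 to 8.23 (median 2.16), and the other members 2.04 to 13.5 (median 2.503). The steadiest of them had Arka Chaitra signals of 3.82 and 3.74 in the control and 3.63 and 4.13 after heat, a spread of 1.14 times. Its Matar Ageta signals were 2.57 and 2.22 in the control and 7.50 and 6.55 after heat. All 8 columns followed the rule's description in this case, at a low level: 73 counts in the Matar Ageta control and 233 after heat, a ratio of 2.93 (2.24 to 3.87).

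Another of the 13 had 9.14 and 4.61 in the Matar Ageta control, 19.95 and 28.6 after heat, and 7.78, 9.57, 8.27 and 8.80 in Arka Chaitra. One more had 29.0 and 20.9, then 61.8 and 122, and 17.6, 26.7, 22.7 and 21.9 in Arka Chaitra. In both, control levels were similar in the 2 cultivars and the heated Matar Ageta columns stood above all other columns. At the other extreme, the member with the widest Arka Chaitra spread had 7.20 and 21.1 in the control columns and 2.60 and 23.7 after heat (9.11 times from lowest to highest), while its Matar Ageta columns were 14.9, 13.7, 46.5 and 40.1. In it the Matar Ageta columns agreed within each library and the Arka Chaitra columns did not.

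Between cultivars, Matar Ageta was the lower in the control libraries in 30 of 35 members and the higher after heat in 27. Neither count has a share over all entries beside it, so both only describe the chosen members. In the control libraries 18 of 35 members (51.4%) were called at least 2-fold higher in Arka Chaitra, with 0.5 CPM added to each level, and 0 in Matar Ageta. Over all entries tested the shares were 28.4% and 21.7%, and over the 19562 entries steady in Arka Chaitra 29.9% and 4.95%. After heat, 13 members (37.1%) were at least 2-fold higher in Matar Ageta and 2 in Arka Chaitra, where all entries gave 22.2% and 34.9% and the steady entries 5.41% and 31.9%. The median log2 ratio of Arka Chaitra to Matar Ageta was 1.04 in the control (lowest -0.57, highest 5.67) and -0.75 after heat (lowest -2.34), against 0.04 and 0.19 over all entries tested. A higher level after heat in Matar Ageta with a steady Arka Chaitra has to move this ratio downwards. The levels at either end also come from columns the rule used: with every Arka Chaitra column at 2 or more, the 5 members at 0 in the Matar Ageta control had to be higher in Arka Chaitra there, so these counts are a description of the members as chosen.

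Matar Ageta control was the lowest of the 4 libraries in 28 members, and heated Matar Ageta the highest in 27; both held in 20. These counts, and those of the courses below, rest on columns the rule used. No share over all entries was taken for them, so they only describe the chosen members. Relative to Arka Chaitra the members took 2 main courses. In 14, Arka Chaitra was at least 2-fold higher in the control and the cultivars were not 2-fold apart after heat: the median CPM went from 2.06 to 11.3 in Matar Ageta, beside 9.73 and 12.5 in Arka Chaitra. In 11, the cultivars were not called 2-fold apart in the control and Matar Ageta was at least 2-fold higher after heat. Their median CPM was 14.1 and 43.0 in Matar Ageta and 15.1 and 12.6 in Arka Chaitra. The first course brought Matar Ageta up to about the Arka Chaitra level, and the second took it beyond.

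The 4 most abundant members followed the second course, one of them with a log2 ratio of 1.00 in the control, just short of the 2-fold call. Of the other members, 6 were not called 2-fold apart between cultivars under either treatment. Another 2 stayed at least 2-fold higher in Arka Chaitra under both, and 2 went from higher in Arka Chaitra to higher in Matar Ageta. The last 2 had Matar Ageta signals of 6.53 and 6.80 that became 36.6 and 25.99, and of 0 and 4.62 that became 15.2 and 24.5. Among the 13 members with close Arka Chaitra columns, 5 were called 2-fold higher in Arka Chaitra in the control and 2 were called 2-fold higher in Matar Ageta after heat.

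**Figure D4:**
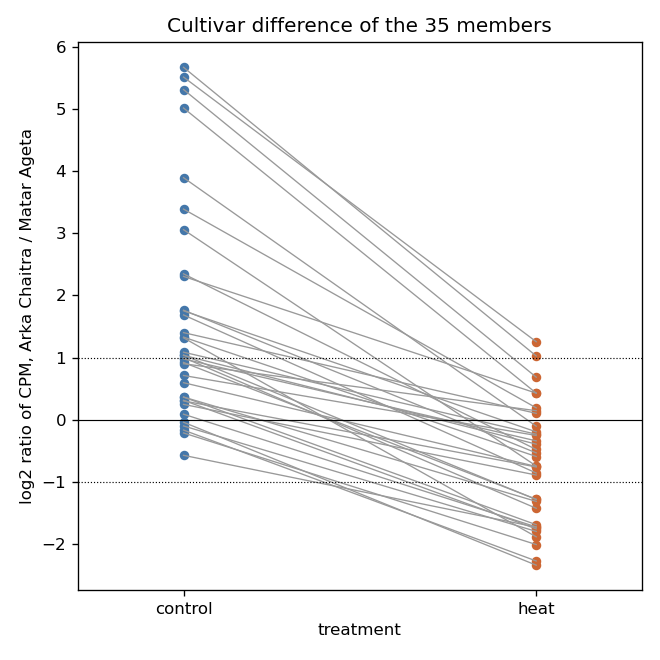
Log2 ratio of CPM, Arka Chaitra over Matar Ageta (y), in the control and heat libraries (x) for each of the 35 members, joined by a line; dotted lines mark 2-fold. In the control 18 points lie at or above the upper dotted line and none is called below the lower one; after heat 13 are called below the lower line and 2 above the upper one.

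An assembly can split 1 gene into several entries, so the members were also read with the other entries that carry the same cluster number. The 35 members came from 35 different clusters; 14 were alone in theirs and 21 shared it with 71 other entries, up to 28 entries in a cluster. When counts were summed over each cluster, 33 of the 35 sums in Matar Ageta were at least 2-fold higher after heat, where 9.85% of all clusters tested were, and 0 were at least 2-fold lower, where 14.7% were. In Arka Chaitra 0 of the 35 sums were at least 2-fold higher and 1 was at least 2-fold lower. No share over all clusters was taken for Arka Chaitra, where the rule had already held the members within its band. The sums contain the members, so they ask only whether the total moved.

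In the 21 shared clusters, the median log2 ratio in Matar Ageta was 1.60 for the sums and 1.87 for the members themselves. The sums of 2 clusters fell short of 2-fold, with log2 ratios of 0.64 and 0.79, where the member supplied 36.0% and 28.8% of the heated Matar Ageta counts of its cluster. For 1 member the log2 ratio of 4.13 came down to 1.90 in the sum, because another entry of the cluster held all of its control counts. That other entry had 2.02 CPM in the control and 0.627 CPM after heat.

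The other entries gave values that the rule did not use. Of the 28 that reached 1 CPM in a Matar Ageta library, 14 had a heat value in Matar Ageta at least 2 times the control, where 14.1% of all entries were, and 6 were at least 2-fold lower, where 17.8% were; their median log2 ratio was 1.02. In Arka Chaitra 4 of 27 were higher and 11 lower, beside 21.2% and 14.2% of all entries. Entries of 1 cluster share reads and are not independent of the member or of each other, and several come from the largest cluster.

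**Figure D5:**
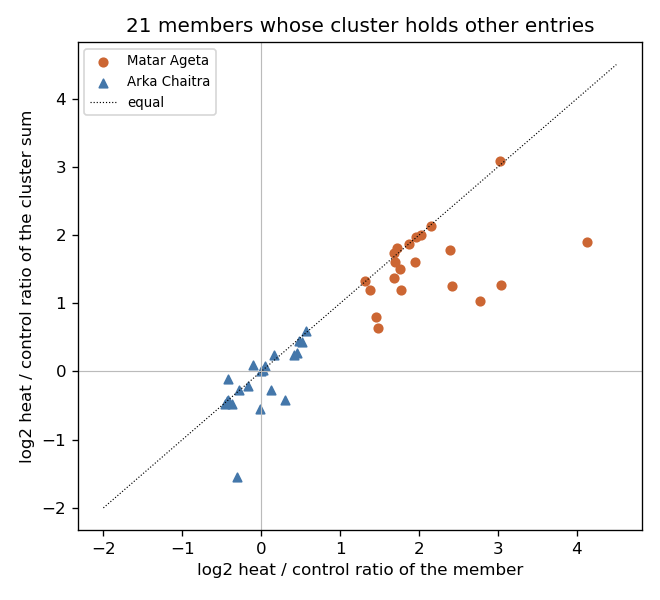
Log2 ratio of heat to control for the summed counts of a cluster (y) against that of the member in it (x), for the 21 members whose cluster holds other entries, in Matar Ageta (circles) and Arka Chaitra (triangles). Most circles lie near or somewhat below the dotted line of equal values, and 19 of the 21 sums are at least 2-fold higher in Matar Ageta.

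The members were scattered over the assembly. Their cluster numbers ran from 161 to 62734 of 69607, with a smallest gap of 41 numbers, and they fell into 23 of the 70 windows of 1000 numbers, at most 3 to a window. In clusters within 5 numbers of a member, 41 of 285 entries (14.4%) had at least 2 times the control level in heated Matar Ageta and 64 (22.5%) were at least 2-fold lower, near the 14.1% and 17.8% of all entries. By cluster number, no raised neighbourhood was therefore seen around the members. Whether neighbouring numbers stand for neighbouring genes was not checked. Windows in which entries at least 16-fold in favour of the Arka Chaitra control outnumber those in favour of the other control (28 of 70) held 22 members (62.9%), beside 60.8% of all entries steady in Arka Chaitra and 83.8% of the 136 entries lower in Matar Ageta and steady in Arka Chaitra.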

How the data were processed

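The labels' protocols give total RNA from buds and libraries from a SMARTER mRNA kit; the submitters' processing notes list RSEM, STAR, Bowtie2, DESeq2 and FastQC, without versions or roles. No genome build is given in the sources used here. The authors deposited expected counts per assembled gene, and a signal that is this count times 1 constant per column, marked TMM and scaled separately for each cultivar.

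The signal chose the members. For everything else the expected counts were summed over the 2 columns of a library, rounded to whole numbers and scaled jointly by TMM (edgeR 4.0.16, R 4.3.3); DESeq2 1.42.0 size factors were an alternative. Log2 ratios used a pseudocount of 0.5 CPM. An entry was tested where 1 of the 2 libraries reached 1 CPM, and called at a ratio of at least 2 with an exact (Clopper-Pearson) 95% interval excluding 1. Scripts were tested on simulated data. With 1 sample per group no test was run. The members and lists were chosen with earlier results of these data known. The 2 identifiers printed are the members with the largest rule fold and with the highest heated Matar Ageta signal. Other members are given by value.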

Additional observations from a re-analysis of the deposited data

Results flagged for a closer look

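In 10 members the counting interval of the heat to control ratio lay above 1 in Matar Ageta and below 1 in Arka Chaitra. The Arka Chaitra signal ratios of these members were 0.683 to 0.930. In 0 of these did both Arka Chaitra heat columns lie below both control columns. One of them was TRINITY_GG_13404_c1_g1, whose log2 ratio was larger in Matar Ageta by 2.30. The counting interval does not cover the disagreement between columns of a library, so no fall in Arka Chaitra is read from it. The share over all entries was not taken. With 1 library in each group, the difference between cultivars was not tested.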

How the results depend on the processing

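Of 119 alternative values over 15 results, 97 kept their size and direction within 1.5 times (counts) or within the median counting error (medians), and 22 moved. Several of these results, such as the heat differences within each cultivar, were largely set by the rule for the chosen members. The tally is therefore no measure of support for them. The number of members, 35, became 8 with a 3-fold threshold, 19 with a narrower Arka Chaitra band and 21 with an Arka Chaitra floor of 5. With 1 column per library in the rule it became 495 (column 1) and 829 (column 2), of which 16 and 19 were among the 35. Scaling all columns together kept 30. The rule with 1 column per library and the restrictions to the 13 members with Arka Chaitra columns within 2-fold and to the members with Matar Ageta control counts above 0 were chosen after seeing the data.

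The median Arka Chaitra log2 ratio was -0.29 from column 1 alone and 0.41 from column 2 alone. In Arka Chaitra 1 and 5 members then had heat values at least 2 times the control, and 5 and 2 were at least 2-fold lower. From column 2 alone 2 members were at least 2-fold higher in Matar Ageta in the control. The 2 members higher in Arka Chaitra after heat became 1 from column 2 alone, with a pseudocount of 2 CPM, and without members at 0 in the Matar Ageta control. Among the 13 members, counts were 13 for the Matar Ageta heat difference, 12 for cluster sums, 5 and 2 for the cultivar differences, and the median after heat was -0.39. At 10 CPM or more, 2 of 5 other cluster entries were higher in Matar Ageta. The cause of these shifts was not tested, beyond the smaller number of members or entries.

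No paired analysis was possible because heat and control titles carry different replicate numbers and no result comes from a test. Leaving out a replicate was not possible with 1 sample per group.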
